A study of Mus musculus with 16 samples.

Results

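Voltage-gated sodium and calcium channels, HCN channels and the potassium channel families were followed in the left and right medial prefrontal cortex (mPFC) of mice after chronic social defeat. The genes were taken by symbol, as all genes on the array whose symbol starts with Kcn, with Scn or Hcn and a digit, or with Cacn, except Scn4b. They numbered 109 of the 16593 named genes on the array and were read by 167 probes. Of these, 67 genes had a probe detected on all 16 arrays and could be tested among 8419 such genes. The remaining 42 channel genes were not tested, since 24 had no probe detected on any array and 18 were detected on some arrays only.

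Voltage-gated channels open when the membrane potential changes, and the ions they pass shape the firing of neurons. Sodium channels carry the upstroke of the action potential, calcium channels couple it to transmitter release and to burst firing, and potassium channels repolarize the membrane and set the resting potential. Pore-forming alpha subunits carry the current, while beta, gamma and other auxiliary subunits change their gating and their transport to the membrane. In the mPFC, pyramidal neurons and interneurons differ in the channels they use, and some channel genes are also active in glia.

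C57BL/6 J male mice, 8 weeks old at the first defeat, met an aggressive CD-1 mouse for 10 minutes a day over 10 days, and control mice were housed in the same way without defeat. Defeated mice with an interaction ratio below 1 in a social interaction test were called susceptible and those with a ratio above 1 resilient. The left and right mPFC were dissected 1 day after this test, and the deposited labels give 7 mice per group. For the control and resilient groups on the arrays, the study's own text gives more mice. Susceptible and resilient mPFC were measured on 3 arrays per side each and control mPFC on 2 arrays per side. RNA had been pooled in equal amounts before hybridization, so p-values here measure the spread between arrays, which may be technical, and not the spread between mice.

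The mean signal of an array was 376 to 567, and 13648 to 14397 probes per array passed the detection p of 0.05, among them 94 to 101 of the channel probes. By position in the deposited table, the 4 control arrays lay in the upper part, whose 8 arrays had a mean signal of 466 to 567, against 376 to 463 for the last 8. Markers of excitatory neurons were bright on all arrays, with a mean log2 signal over 3 genes of 12.44 to 12.66. All values below are log2 signals after quantile normalization, differences are log2 differences with the standard error (SE) of the fit, and a gene is called where its adjusted p (limma, Benjamini-Hochberg over the 8419 genes) was below 0.05. In bulk tissue, fewer cells of a type and less RNA per cell cannot be told apart.

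Over 11 comparisons, 14 of the 67 tested channel genes were called at least once, in 35 calls, against 12.4% of all genes called at least once. With arrays scaled only to a common median, 1 of these 35 calls was kept, that of Kcna1 between susceptible and control left mPFC, with a difference of -0.76 and an adjusted p of 0.042 (limma). With cyclic loess, 35 of the 35 calls were kept, and with the authors' normalized values 32 were.

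Of the 14 called genes, 6 had a promoter in the RefSeq table (GRCm38.p6). The 250 bases before the start are shown for 2 of these genes, each with a single window in that table. Of these, Kcnk13 was lower on the left in susceptible mice and Scn1a lower in resilient than in control mice on both sides. Capitals mark CG dinucleotides.
Kcnk13, chr12:99964249-99964498, plus strand: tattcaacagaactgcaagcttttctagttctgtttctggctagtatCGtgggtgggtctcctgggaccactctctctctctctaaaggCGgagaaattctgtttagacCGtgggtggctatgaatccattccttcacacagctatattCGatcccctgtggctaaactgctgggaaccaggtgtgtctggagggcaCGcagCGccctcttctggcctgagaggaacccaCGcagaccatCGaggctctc
Scn1a, chr2:66440838-66441087, minus strand: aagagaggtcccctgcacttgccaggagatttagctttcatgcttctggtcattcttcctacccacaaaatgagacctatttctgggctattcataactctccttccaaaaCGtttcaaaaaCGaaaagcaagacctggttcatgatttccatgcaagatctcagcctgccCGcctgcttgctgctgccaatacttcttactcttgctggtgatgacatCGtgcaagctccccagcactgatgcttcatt
The Kcnk13 window held 8 CG dinucleotides and the Scn1a window held 4, against a median of 6 over all windows of the table. The GC content was 52.8% for Kcnk13 and 46.8% for Scn1a, against a median of 52.4%. Neither window matched any of 4 motifs searched on both strands, none of which contains another. These were the TATA box with the letters TATAAA, present in 12.4% of the 32851 windows, the GC box GGGCGG, present in 32.7%, the cAMP response element TGACGTCA, present in 1.55%, and the E-box CACGTG, present in 6.02%.

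Left and right mPFC of susceptible mice differed in 7 channel genes. Cacng3, Cacna1g, Cacna1h, Kcnk6 and Scn3b were higher on the left, and Kcna1 and Kcnk13 were lower on the left. The 7 calls came from 67 genes tested, while 5.21% of all genes were called in this comparison, 2.77% with the left side higher and 2.45% with the right side higher. The arrays of the sides did not overlap for 19 of the 67 channel genes, and for 20.1% of all genes. The median absolute difference was 0.08 for the channel genes and 0.06 for all genes.

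Cacng3 encodes a gamma subunit of the TARP family, which is known as an auxiliary protein of AMPA receptors. Its log2 signals were 9.29, 9.33 and 9.15 on the susceptible left arrays, against 8.80, 8.95 and 8.82 on the susceptible right arrays. Every left array was above every right array, and the left was 1.32-fold higher (log2 difference 0.40, SE 0.07, adjusted p 0.00040, limma). In resilient mice the signals were 8.99, 9.05 and 9.00 on the left, against 9.00, 9.18 and 9.28 on the right, and in control mice 9.07 and 8.98 on the left, against 9.34 and 9.27 on the right. The left arrays were thus the lower ones in control mice. A dimmer Cacng3 probe was also higher on the left in susceptible mice, with a difference of 0.24.

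Cacna1h and Cacna1g encode T-type calcium channels, which open near the resting potential and are known for burst firing. Cacna1h had signals of 9.92, 9.999 and 9.77 on the susceptible left arrays, against 9.64, 9.66 and 9.63 on the right. Cacna1g had signals of 9.11, 9.01 and 8.98 on the susceptible left arrays, against 8.77, 8.72 and 8.83 on the right. In both genes the lowest left array lay above the highest right array, and the differences were 0.26 with an SE of 0.07 each (adjusted p 0.022 for Cacna1h and 0.027 for Cacna1g, limma). Cacna1g had another detected probe, which gave -0.06 (unadjusted p 0.470, limma), so its probes disagree. Averaged over its probes, Cacna1g had a difference of 0.10 and an adjusted p of 0.353. All 5 tested pore-forming calcium channel subunits had a positive left-right difference in susceptible mice, with a median of 0.12, under quantile normalization, median scaling, cyclic loess, background correction and the authors' values alike, although the called ones among them were Cacna1g and Cacna1h.

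Kcnk6 encodes a two-pore potassium channel of the TWIK family, a background leak channel. Its signals were 7.88, 7.88 and 7.91 on the susceptible left arrays, against 7.60, 7.69 and 7.63 on the right. The groups did not overlap, with a difference of 0.24 (SE 0.06, adjusted p 0.014, limma), and its dimmer probe gave 0.19. Scn3b, a beta subunit that changes the gating of sodium channels, had 9.43, 9.54 and 9.36 on the susceptible left arrays, against 9.20, 9.29 and 9.16 on the right. Its groups did not overlap either, with a difference of 0.22 (SE 0.06, adjusted p 0.039, limma). A dim Scn3b probe gave 0.07 (unadjusted p 0.258, limma). Averaged over its probes, Scn3b was not called here (adjusted p 0.081) nor in its comparisons with control left mPFC below (adjusted p 0.052 in susceptible and 0.163 in resilient mice, limma).

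Kcna1 encodes Kv1.1, a voltage-gated potassium channel subunit found on axons, which limits repetitive firing. Its signals were 9.97, 9.77 and 9.82 on the susceptible left arrays, against 10.26, 10.17 and 10.20 on the right. All left arrays were below all right arrays, with a difference of -0.35 (SE 0.06, adjusted p 0.00049, limma). Resilient mice had 10.12, 9.94 and 10.04 on the left, against 10.04, 9.96 and 9.97 on the right, and control mice had 10.28 and 10.35 on the left, against 10.09 and 10.14 on the right. Resilient sides overlapped, and control left arrays were the higher ones.

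Kcnk13 encodes THIK-1, a two-pore potassium channel known from microglia. Its signals were 7.99, 7.73 and 7.65 on the susceptible left arrays, against 8.20, 8.23 and 8.08 on the right. The left arrays were all lower, with a difference of -0.38 (SE 0.08, adjusted p 0.0016, limma). In resilient mice the signals were 8.24, 8.19 and 8.13 on the left, against 8.23, 8.15 and 8.01 on the right, and these overlapped. Control mice had 8.15 and 8.19 on the left, against 8.03 and 7.92 on the right. The differences of the 4 microglia markers tested in susceptible mice ran from -0.03 to 0.18.

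**Figure D1:**
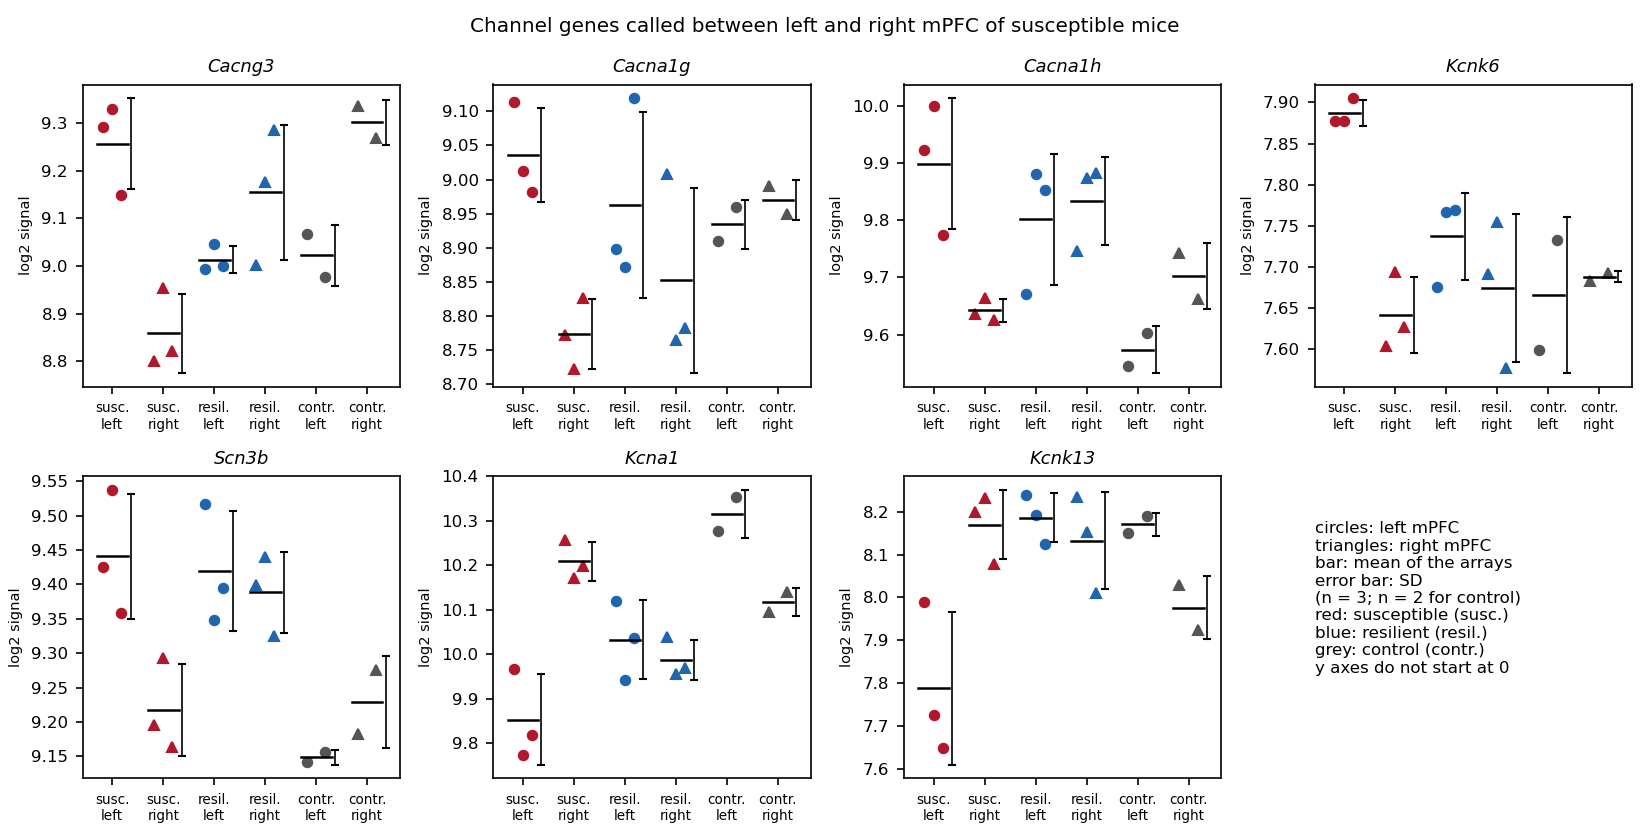
Log2 signal (y axis, after quantile normalization) on each array of the 7 channel genes called between left and right mPFC of susceptible mice, by group and side (x axis), with the mean and SD of 3 arrays (2 for control). In susceptible mice the left arrays lie above the right arrays for Cacng3, Cacna1g, Cacna1h, Kcnk6 and Scn3b and below them for Kcna1 and Kcnk13.

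The calls of Cacng3, Kcna1 and Kcnk13 held without any single susceptible array. Without susceptible right replicate 1 the count was 3 in place of 7, and it was 4 without left replicate 1, left replicate 2 or right replicate 3, with adjusted p-values (limma) up to 0.135 for Cacna1h, 0.127 for Cacna1g and 0.205 for Scn3b. Kcnk6 reached 0.055, 0.070 and 0.054 without left replicate 3, right replicate 1 and right replicate 3. With median scaling the calls over all genes were 11 toward the left and 25 toward the right, against 233 and 206 with quantile normalization.

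Several other marker lists moved in the same comparison, and their part in the channel results was not tested. Of the oligodendrocyte markers, 8 of 8 were called lower on the left in susceptible mice, with mean log2 levels of 10.39 to 10.44 on the left arrays, against 11.02 to 11.05 on the right. Upper-layer neuron markers were called higher on the left for 3 of 4 genes, at 9.12 to 9.20 on the left, against 8.42 to 8.56 on the right, and layer 6 and 6b markers lower on the left for 4 of 7 genes, at 9.36 to 9.38, against 9.81 to 9.86. Of 4 layer 5 markers 1 was called lower, and the list had a median of -0.06. Of 5 interneuron markers, Vip was called higher on the left and Sst lower. Meningeal markers were called higher on the left for 4 of 4 genes, at 8.31 to 8.39, against 7.61 to 7.63, and striatal neuron markers lower on the left for 3 of 3 genes, at 9.14 to 9.22, against 9.54 to 9.58. The differences of the 7 channel genes kept their sign within the first 8 and within the last 8 arrays of the table. This outcome was fixed in advance, since the arrays of the sides did not overlap for any of these genes.

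Among the subunit classes, the median left-right difference in susceptible mice ran from -0.11 to 0.12. It was 0.12 for the 5 pore-forming calcium channel subunits, 0.10 for the 2 sodium channel beta subunits and -0.11 for the 2 sodium channel alpha subunits. The 19 tested Kv pore-forming subunits had a median of 0.01, with Kcna1 as the called one, and the 8 tested Kv auxiliary subunits had a median of 0.05. The 6 tested genes of the BK, SK, Slack and Slo3 families, among them the auxiliary subunit Kcnmb4, had a median of -0.07 and the 6 inward rectifiers of -0.01, and these ran from -0.10 to 0.04 and from -0.11 to 0.16. The 7 two-pore channels held 1 gene called higher on the left and 1 called lower. HCN channels, which carry the hyperpolarization-activated current, gave -0.09 for Hcn2 and 0.14 for Hcn3 (adjusted p 0.605 and 0.335, limma). The 5 alpha2delta and beta subunits of calcium channels ran from -0.05 to 0.10.

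Other genes of membrane excitability that are not channel subunits of these families, such as ion pumps, chloride carriers and channel anchors, were also followed. Of the 29 tested, 0 were called between the sides in susceptible mice (limma), 7 had an unadjusted p below 0.05, as did 1403 of all 8419 genes, and their median difference was -0.01.

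**Figure D2:**
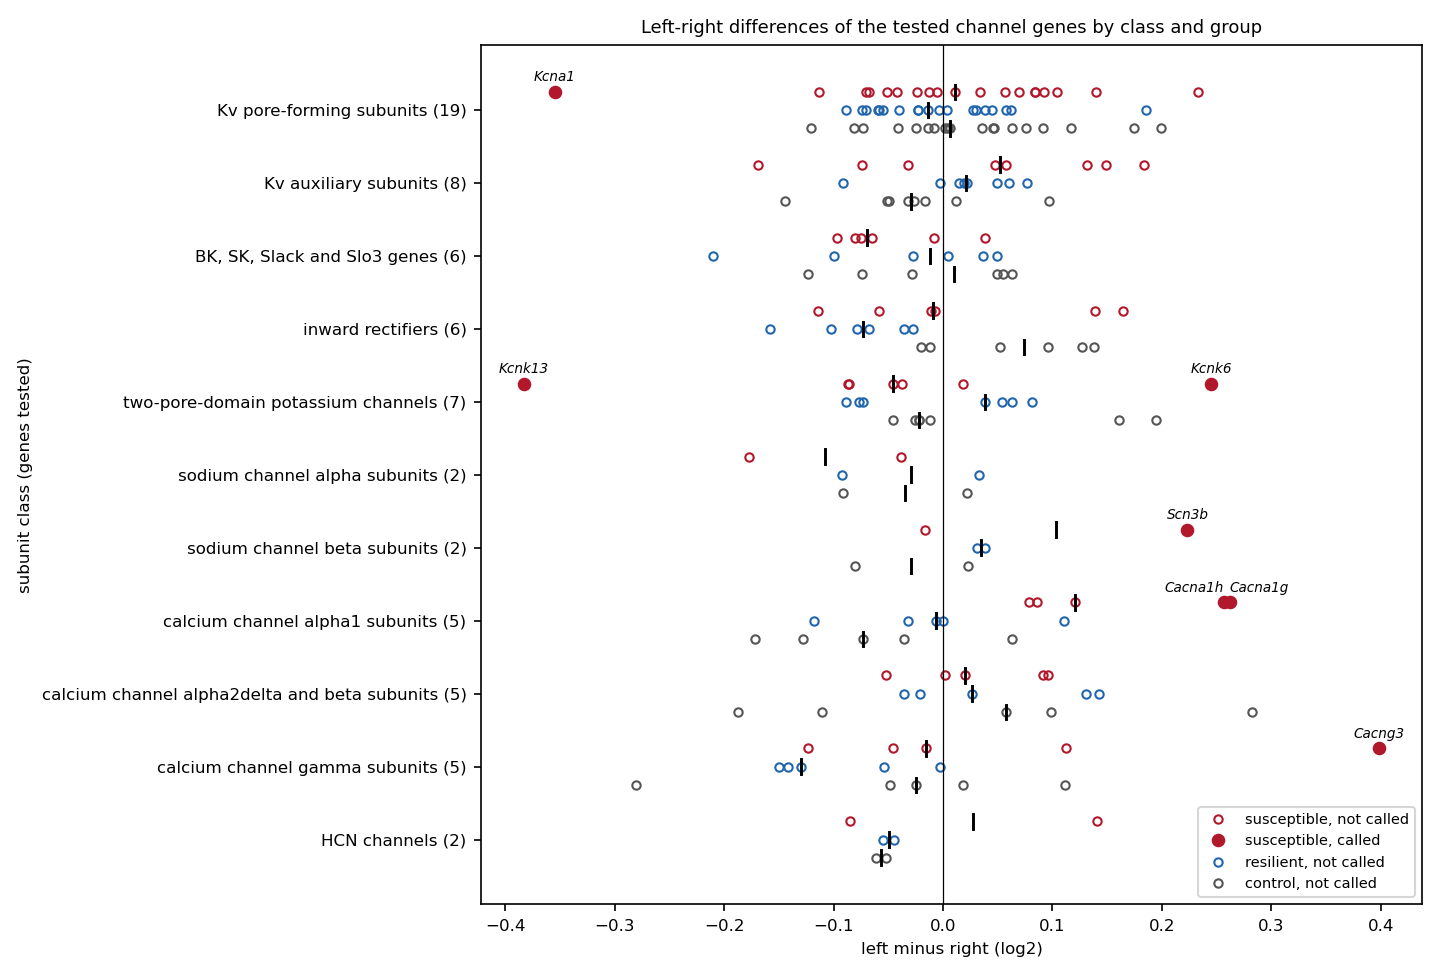
Left minus right log2 difference (x axis) of the 67 tested channel genes by subunit class (y axis, number of genes tested in parentheses), with susceptible mice in red, resilient mice in blue and control mice in grey, filled points for called genes and a vertical bar at each median. The called genes are all in susceptible mice and lie at 0.22 to 0.40 or at -0.38 and -0.35.

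In resilient and control mice no channel gene passed the test between the sides. In resilient mice 0 of 67 channel genes were called (limma), against 0.0356% of all genes, and 4 channel genes had an unadjusted p below 0.05, as did 368 of all genes. In control mice 0 of 67 were called (limma), against 0.0119% of all genes, and 6 channel genes and 420 of all genes had an unadjusted p below 0.05. The counts of 0 held under each of the alternatives run.

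The channel genes nearest to a call in resilient mice were Kcnt1, Kcnd2 and Kcnj6. Kcnt1, a potassium channel activated by sodium, had 7.34, 7.41 and 7.26 on the resilient left arrays, against 7.51, 7.55 and 7.59 on the right, with no overlap and a difference of -0.21 (SE 0.06, adjusted p 0.940, limma). Kcnd2, the A-type channel Kv4.2, had a difference of 0.19 with no overlap, and Kcnj6, the inward rectifier GIRK2 opened by G proteins, had -0.16 with overlap (adjusted p 0.990 each, limma). In control mice Cacna2d1, the alpha2delta subunit bound by gabapentin, had 10.31 and 10.20 on the left, against 9.95 and 10.01 on the right. Its difference was 0.28 (SE 0.08, adjusted p 0.394, limma). Cacng3 and Kcna1 had differences of -0.28 and 0.20 in control mice (adjusted p 0.518 and 0.790, limma), opposite in sign to those in susceptible mice.

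The left-right difference itself was compared between groups of mice for every gene. Cacng3, Kcna1 and Kcnk13 differed in it between susceptible and resilient mice, 3 of 67 channel genes against 2.15% of all genes, and the same 3 differed between susceptible and control mice, against 2.63% of all genes. Both comparisons share the susceptible arrays. For Cacng3 this difference was 0.40 in susceptible mice, -0.14 in resilient mice and -0.28 in control mice, so that the susceptible value exceeded the resilient by 0.54 (SE 0.10, adjusted p 0.0016, limma) and the control by 0.68 (SE 0.11, adjusted p 0.00039). Its dimmer probe gave 0.37 and 0.46 for these.

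For Kcna1 the left-right difference was -0.35 in susceptible mice, 0.04 in resilient mice and 0.20 in control mice. The susceptible value minus the resilient was -0.40 on the log2 scale (SE 0.09, adjusted p 0.012, limma) and minus the control -0.55 (SE 0.10, adjusted p 0.0013). For Kcnk13 it was -0.38 in susceptible mice, 0.05 in resilient mice and 0.19 in control mice. The comparison gave -0.44 against resilient (SE 0.11, adjusted p 0.023, limma) and -0.58 against control mice (SE 0.12, adjusted p 0.0047).

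Cacng3 and Kcna1 kept both calls without any single array. Kcnk13 lost its call against resilient mice without resilient left replicate 1 or 2, resilient right replicate 3, susceptible left replicate 2 or 3, or susceptible right replicate 1 or 2, with adjusted p-values of 0.057 to 0.091 (limma), and against control mice without control right replicate 2 (adjusted p 0.053). The 3 genes lost these calls with median scaling, where their differences kept their sign, and Kcnk13 also lost its call against resilient mice with normexp background correction.

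The left-right difference of marker lists also differed between the groups, and their part in the channel results was not tested. Between susceptible and resilient mice, 8 of 8 oligodendrocyte markers, 3 of 3 striatal markers and 3 of 7 layer 6 and 6b markers were called lower in it, with medians of -0.62, -0.46 and -0.29. Meningeal markers were called higher for 4 of 4 genes and upper-layer markers for 3 of 4, with medians of 0.74 and 0.77. Between susceptible and control mice the oligodendrocyte markers were called lower for 8 of 8 genes and the meningeal markers higher for 4 of 4, with medians of -0.72 and 0.90. Upper-layer markers were called higher for 3 of 4 genes, with a median of 0.85. Layer 6 and 6b markers were called lower for 4 of 7 genes and striatal markers for 2 of 3, with medians of -0.55 and -0.46.

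Against control mice, the left mPFC of susceptible mice had less Kcna1, Scn1a, Kcnk13 and Kcnk2 and more Cacna1h, Scn3b and Cacna1a. These 7 of 67 channel genes compare with 4.24% of all genes called. Kcna1 had 9.97, 9.77 and 9.82 on the susceptible left arrays, against 10.28 and 10.35 on the control left arrays. All susceptible arrays were lower, at 0.726-fold of control (log2 difference -0.46, SE 0.07, adjusted p 0.00026, limma), and this call held under each of the 14 alternatives run.

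Scn1a encodes Nav1.1, the sodium channel known for the firing of parvalbumin interneurons. Its signals were 10.16, 10.31 and 10.19 on the susceptible left arrays, against 10.68 and 10.56 on the control left arrays. No array overlapped, and the difference was -0.40 (SE 0.08, adjusted p 0.0039, limma). Kcnk13 had a difference of -0.38 (SE 0.08, adjusted p 0.0085). Kcnk2, the mechanosensitive two-pore channel TREK-1, had 8.88, 8.68 and 8.89 on the susceptible left arrays, against 9.20 and 9.12 in control. Its susceptible arrays were all lower, with a difference of -0.34 (SE 0.09, adjusted p 0.027).

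Cacna1h had a difference of 0.32 (SE 0.08, adjusted p 0.012, limma) and Scn3b of 0.29 (SE 0.07, adjusted p 0.017) in susceptible left mPFC against control left. A dim Scn3b probe gave 0.08. Cacna1a encodes the P/Q-type channel that serves transmitter release. It had 7.46, 7.47 and 7.54 on the susceptible left arrays, against 7.25 and 7.19 in control, with no overlap and a difference of 0.27 (SE 0.07, adjusted p 0.027, limma).

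Without control left replicate 1 the count in this comparison was 1 in place of 7, Kcna1 being the call left, it was 2 without control left replicate 2, and it was 3 without susceptible left replicate 2. Scn1a had an adjusted p of 0.144 (limma) without control left replicate 1, with a difference of -0.33. With the first and last 8 arrays of the table as a block, 3 channel genes were called, since Kcnk13, Cacna1h, Cacna1a and Kcnk2 had adjusted p-values of 0.053 to 0.145. Median scaling moved the median of all genes in this comparison to -0.20, and relative to control it gave 0.03 for Cacna1h and 0.01 for Scn3b. The oligodendrocyte markers were called lower in susceptible left mPFC than in control left for 8 of 8 genes, at 10.39 to 10.44, against 10.93 to 10.94. Meningeal markers were called higher for 4 of 4 genes, at 8.31 to 8.39, against 7.93 to 7.95, and of 5 interneuron markers Sst was called lower. Their part in the channel results was not tested. Cacna1a also lost its call with the authors' normalized values, and Kcnk2 with normexp background correction.

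In the right mPFC of susceptible mice Cacng3 and Kcnk2 were lower and Cacng5 and Kcnip4 higher than in control right mPFC, 4 of 67 channel genes against 4.88% of all genes. Cacng3 had 8.80, 8.95 and 8.82 on the susceptible right arrays, against 9.34 and 9.27 on the control right arrays. All susceptible arrays were lower, at 0.735-fold of control (log2 difference -0.44, SE 0.08, adjusted p 0.0011, limma), while its dimmer probe gave -0.16 (unadjusted p 0.038). Kcnk2 had 8.96, 8.72 and 8.91 on the susceptible right arrays, against 9.18 and 9.23 in control, with a difference of -0.34 (SE 0.09, adjusted p 0.026, limma). Its susceptible arrays were below the control arrays on both sides of the brain.

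Cacng5 encodes another gamma subunit of the TARP family. It had 7.93, 7.91 and 7.97 on the susceptible right arrays, against 7.69 and 7.67 in control, with no overlap and a difference of 0.26 (SE 0.06, adjusted p 0.014, limma). Its dimmer probe gave 0.15 (unadjusted p 0.037, limma). Kcnip4 encodes KChIP4, a calcium-binding partner of Kv4 channels. It had 7.37, 7.42 and 7.37 on the susceptible right arrays, against 7.17 and 7.11 in control, with no overlap and a difference of 0.24 (SE 0.07, adjusted p 0.030, limma).

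Cacng3 kept this call without any single array. The count was 1 in place of 4 without control right replicate 1 or without control right replicate 2, where Cacng5, Kcnk2 and Kcnip4 had adjusted p-values of 0.103 to 0.269 (limma), and it was 2 without susceptible right replicate 2 or 3. With the table position as a block, Cacng5, Kcnk2 and Kcnip4 had 0.057, 0.138 and 0.119. Kcnip4 was called in 0 of the 5 fits that left out an array, with adjusted p-values of 0.052 to 0.269 (limma), and was not called with the authors' normalized values (adjusted p 0.058), and Kcnk2 was not called with normexp background correction. In susceptible right mPFC against control right, meningeal markers were called lower for 4 of 4 genes and upper-layer markers for 3 of 4. Striatal markers were called higher for 3 of 3 genes, oligodendrocyte markers for 4 of 8, layer 6 and 6b markers for 4 of 7 and layer 5 markers for 2 of 4, and their part in the channel results was not tested.

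Resilient mice also differed from control mice in channel genes, with Scn1a and Kcnab3 lower on both sides. In left mPFC 5 of 67 channel genes were called, against 2.7% of all genes, and in right mPFC 3 of 67, against 2.26% of all genes. These comparisons share the control arrays with those of susceptible mice. Scn1a had 10.33, 10.20 and 10.15 on the resilient left arrays, against 10.68 and 10.56 in control. On the right it had 10.25, 10.29 and 10.05 in resilient mice, against 10.64 and 10.54 in control. Resilient arrays were below control arrays on both sides, with differences of -0.39 on the left and -0.40 on the right (SE 0.08 each, adjusted p 0.0067 and 0.0046, limma). Pvalb, which encodes parvalbumin, was also called lower in resilient mice, with differences of -0.39 on the left and -0.32 on the right (adjusted p 0.0049 and 0.019, limma). It was the called one of 5 interneuron markers on each side, whose mean level was 11.81 to 11.87 in resilient left mPFC, against 11.95 to 12.02 in control left, and its part in the Scn1a result was not tested. In susceptible mice Pvalb gave -0.25 on the left (adjusted p 0.062) and 0.01 on the right (adjusted p 0.947).

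Kcnab3 encodes a cytoplasmic beta subunit of Kv1 channels. Its signals were 7.58, 7.58 and 7.37 on the resilient left arrays, against 7.94 and 7.91 in control, and 7.74, 7.41 and 7.64 on the resilient right arrays, against 7.89 and 8.01 in control. No array overlapped on either side, and the differences were -0.42 on the left and -0.35 on the right (SE 0.09 each, adjusted p 0.011 and 0.035, limma). In susceptible mice the same gene gave -0.23 on the left and -0.09 on the right against control and was not called.

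Kcnv1 encodes Kv8.1, a silent subunit that changes other Kv channels. It had 9.26, 9.31 and 9.19 on the resilient left arrays, against 9.64 and 9.58 in control, with no overlap and a difference of -0.35 (SE 0.07, adjusted p 0.0080, limma). On the resilient left against control left, Kcna1 was lower, with a log2 difference of -0.28 (SE 0.07, adjusted p 0.029, limma), and Scn3b was higher, with one of 0.27 (SE 0.07, adjusted p 0.039). A dim Scn3b probe gave 0.03. Cacng5 had 7.94, 7.98 and 8.02 on the resilient right arrays, against 7.69 and 7.67 in control. Its groups did not overlap, with a difference of 0.30 (SE 0.06, adjusted p 0.0065, limma), and its dimmer probe gave 0.26.

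**Figure D3:**
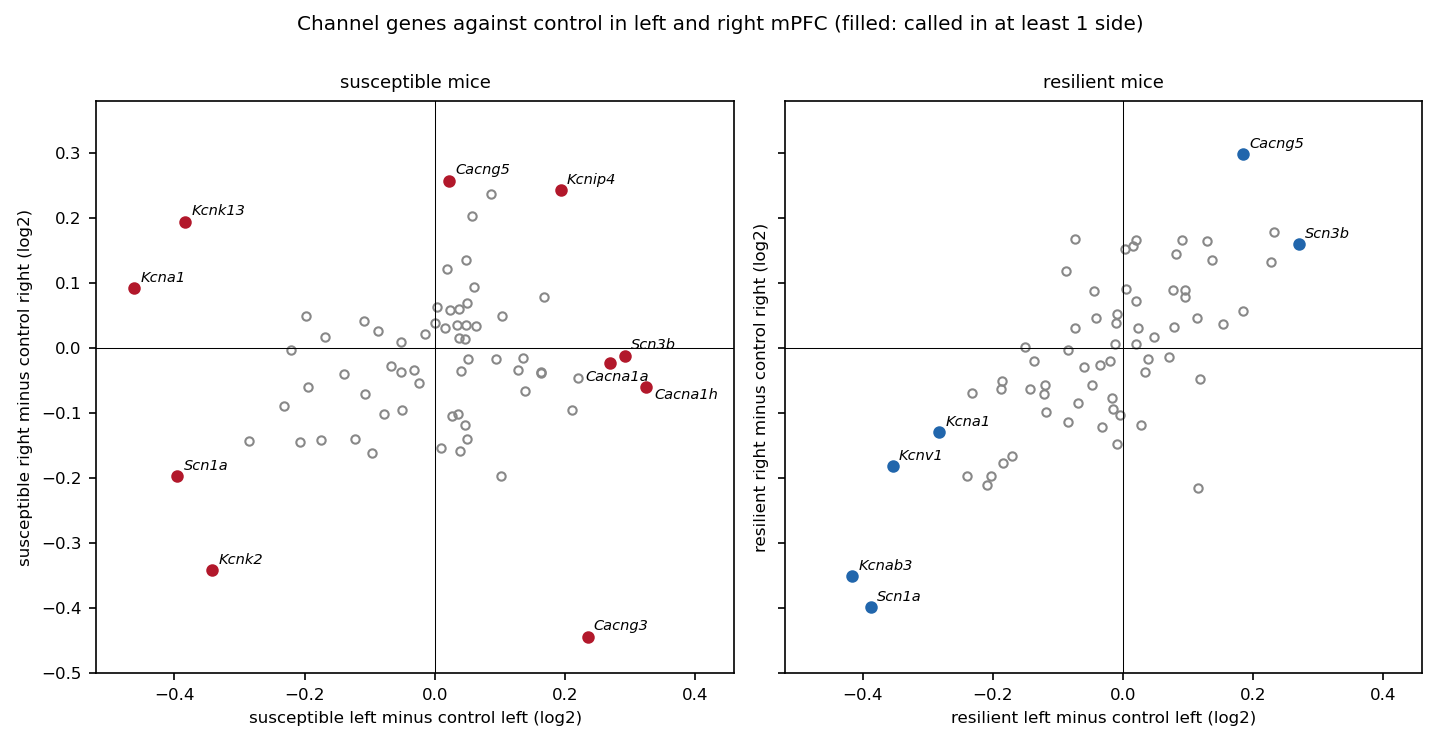
Log2 difference from control in right mPFC (y axis) against that in left mPFC (x axis) for the 67 tested channel genes, in susceptible mice (left panel) and resilient mice (right panel), with filled, named points for genes called on at least 1 side. Scn1a and Kcnab3 lie at -0.35 or below on both axes in resilient mice, and Kcna1 and Kcnk13 lie below 0 on the left axis and above 0 on the right axis in susceptible mice.

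The counts in resilient mice rested on the control arrays. Without control left replicate 1 the count on the left was 0 in place of 5 (limma), with adjusted p-values of 0.170 to 0.308, it was 1 without control left replicate 2, Scn1a being the call left, and 2 without resilient left replicate 3. Without control right replicate 1 the count on the right was 0 in place of 3, with adjusted p-values of 0.067 to 0.115, and without control right replicate 2 it was 1, again Scn1a. With the table position as a block, 2 channel genes were called on the left, Scn1a and Kcnv1, and 2 on the right, Scn1a and Cacng5. Kcnab3 on the right was also not called with normexp background correction, with the authors' normalized values or with the mean over probes. Striatal markers were called higher for 3 of 3 genes in resilient mPFC than in control on both sides, at 9.61 to 9.67 against 9.21 to 9.25 on the left. Layer 6 and 6b markers were called higher for 2 of 7 genes on the left and 4 of 7 on the right, and oligodendrocyte markers for 2 of 8 and 4 of 8, and their part in the channel results was not tested.

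Of the 29 other excitability genes tested, 1 was called higher and 3 lower in susceptible left than in control left mPFC, against 4.24% of all genes, and 2 higher and 4 lower in susceptible right than in control right, against 4.88%. In resilient mice 2 were called lower on each side and 0 higher, against 2.7% of all genes on the left and 2.26% on the right. Slc12a5, the neuronal chloride exporter KCC2, had differences from control of -0.37 on the susceptible left, -0.45 on the susceptible right, -0.52 on the resilient left and -0.45 on the resilient right (adjusted p 0.060, 0.019, 0.0097 and 0.026, limma). Ank3, the ankyrin that holds sodium channels at the axon initial segment, had -0.41 on the susceptible left (adjusted p 0.0051, limma).

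**Figure D4:**
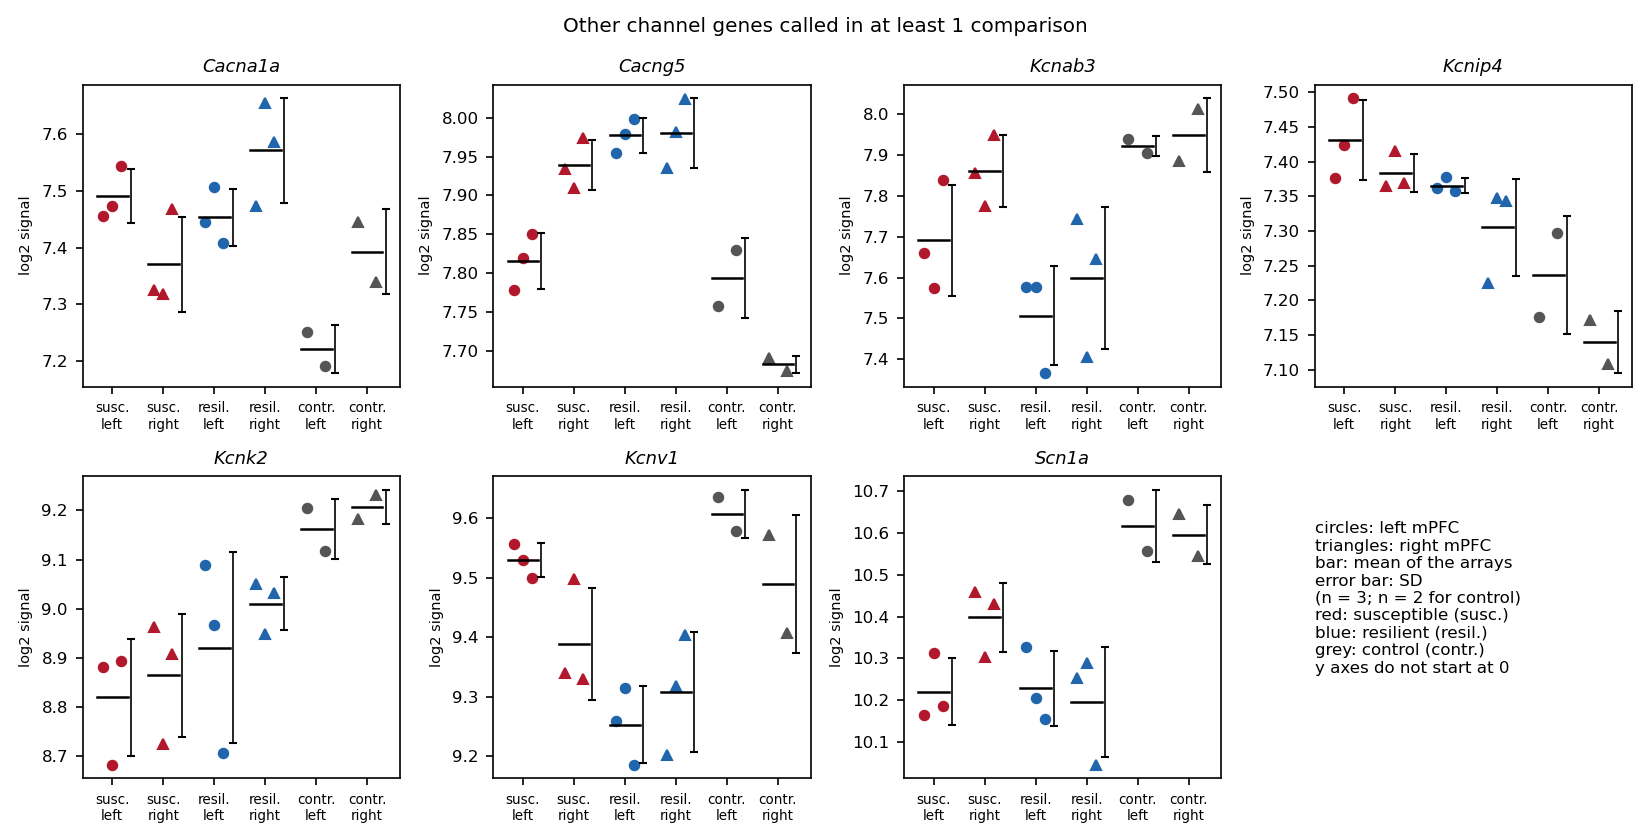
Log2 signal (y axis, after quantile normalization) on each array of the other 7 channel genes called in at least 1 comparison, by group and side (x axis), with the mean and SD of 3 arrays (2 for control). All susceptible and resilient arrays lie below the 4 control arrays for Scn1a and Kcnk2, and all resilient arrays lie below the control arrays for Kcnab3.

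Susceptible and resilient mice were compared on each side. On the left, 2 of 67 channel genes were called, against 2.38% of all genes. Kcnk13 was lower in susceptible mice, at 7.99, 7.73 and 7.65, against 8.24, 8.19 and 8.13 in resilient mice, with no overlap and a difference of -0.40 (SE 0.08, adjusted p 0.0019, limma). Kcnv1 was higher in susceptible mice, at 9.56, 9.53 and 9.50, against 9.26, 9.31 and 9.19, with no overlap and a difference of 0.28 (SE 0.07, adjusted p 0.018, limma). Kcnq5, a subunit of the M-current, had a difference of 0.23 without overlap (SE 0.07, adjusted p 0.064) and was not called. Kcnv1 was also not called with normexp background correction. Oligodendrocyte markers were called lower in susceptible than in resilient left mPFC for 8 of 8 genes, at 10.39 to 10.44, against 11.08 to 11.11. Striatal markers were called lower for 3 of 3 genes and layer 6 and 6b markers for 4 of 7, and upper-layer markers higher for 3 of 4. The part of these lists in the channel results was not tested.

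On the right, 1 of 67 channel genes was called, against 0.831% of all genes. Cacng3 had 8.80, 8.95 and 8.82 in susceptible mice, against 9.00, 9.18 and 9.28 in resilient mice. The susceptible arrays were all lower, with a difference of -0.30 (SE 0.07, adjusted p 0.036, limma), but its dimmer probe gave -0.04. Meningeal markers were called lower in susceptible than in resilient right mPFC for 4 of 4 genes, at 7.61 to 7.63, against 8.11 to 8.14. Upper-layer markers were called lower for 2 of 4 genes, with a median of -0.31. Of 5 interneuron markers Pvalb was called higher, with a difference of 0.33 (adjusted p 0.010, limma). The part of these lists in the channel results was not tested. Kcna1 and Kcnab3 had differences of 0.22 and 0.26 on the right, without overlap between the groups (adjusted p 0.107 and 0.138, limma). Here 13 of the 67 channel genes had no overlap. Kcnv1 lost its call without resilient left replicate 3 or susceptible left replicate 1 or 2, with adjusted p-values of 0.058 to 0.108. Cacng3 lost its call on the right without resilient right replicate 2 or 3 or susceptible right replicate 1 or 3, with adjusted p-values of 0.099 to 0.204.

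**Figure D5:**
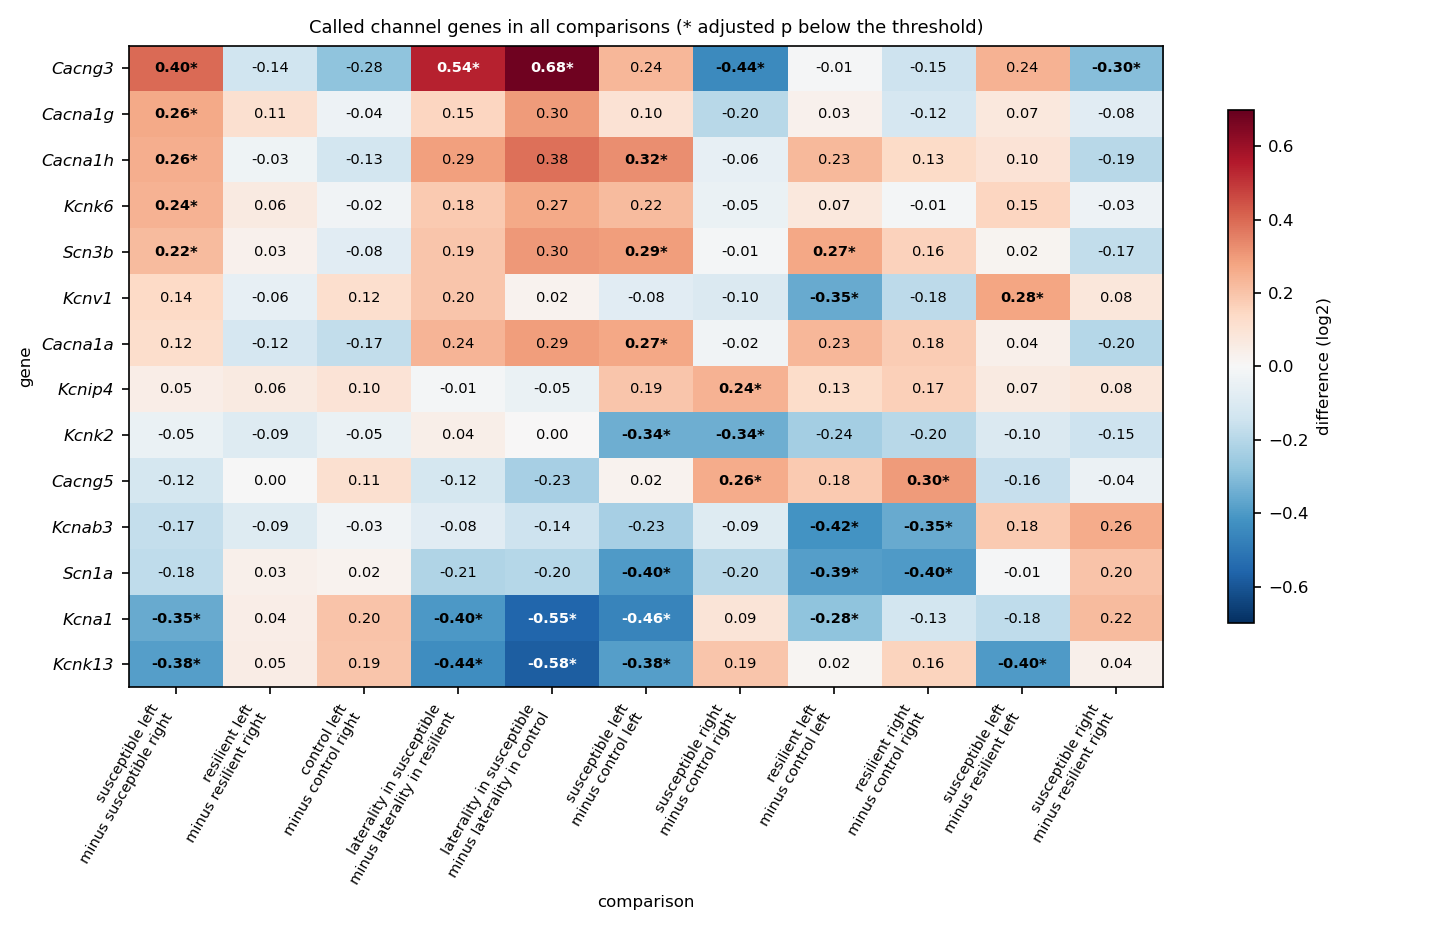
Log2 differences (colour and printed value) of the 14 called channel genes (y axis, ordered by the left-right difference in susceptible mice) in the 11 comparisons (x axis), with asterisks at called values. Cacng3 ranges from -0.44 to 0.68, and Kcna1 and Kcnk13 carry the lowest values of the left-right columns in susceptible mice.

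The other 53 tested channel genes were called in no comparison, and their differences ran from -0.11 to 0.23 between the sides in susceptible mice, from -0.29 to 0.21 in susceptible left against control left, and from -0.23 to 0.18 in resilient left against control left. The brightest tested gene of each class without a call is given over all 16 arrays. Kcnc4, the fast Kv3.4 subunit, had log2 signals of 11.61 to 11.90 over all arrays with a mean of 11.78. Kcnab2, a cytoplasmic beta subunit of Kv1 channels, had 11.63 to 11.84, and Cacnb4, a cytoplasmic beta subunit of calcium channels, had 11.41 to 11.78. The arrays of Kcnc4, Kcnab2 and Cacnb4 ran over 0.297, 0.214 and 0.364 on the log2 scale, against a median of 0.345 over the tested channel genes.

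Hcn2, a subunit of the pacemaker-type channels, had log2 signals of 10.31 to 10.66 over the 16 arrays. Kcnmb4, the neuronal beta subunit of the BK channel, had 10.26 to 10.58, and Scn2b, a sodium channel beta subunit, had 9.99 to 10.36. Kcnj4, an inward rectifier of the Kir2 family, had 9.26 to 9.52, and Kcnk1, the two-pore channel TWIK-1, had 10.57 to 10.91. None of these was called in any comparison. Among the genes not tested for want of detection were Cacna1c, which encodes an L-type calcium channel, the Kv4 subunits Kcnd1 and Kcnd3, and the sodium channels Scn7a and Scn11a, and a probe below detection gives no level for the gene.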

How the data were processed

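The authors hybridized RNA from left and right mPFC to Illumina MouseRef-8 v2 BeadChips and read them with GenomeStudio 1.0.6. The deposited signals are linear probe intensities without background subtraction. They come with a deposited detection score between 0 and 1, which rises with brightness, and 1 minus this score was used as the detection p. The authors also deposited normalized log2 values made with lumi, whose version is not given in the sources used here, and these served as an alternative.

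Signals were put on the log2 scale and normalized by quantiles (limma 3.58.1, R 4.3.3). Probes with a detection p of 0.05 or less on all 16 arrays were kept (11922 probes), and the brightest detected probe stood for each gene. A linear model with 6 groups was fitted with lmFit and eBayes (10 residual degrees of freedom), 11 comparisons were taken from it, and the Benjamini-Hochberg adjustment ran over 8419 genes. Gene names came from the platform annotation, and promoters from the RefSeq table of GRCm38.p6. The sources do not say whether equal replicate numbers mark the same mice, and the numbers were not used as pairs. Named genes are all called channel genes, the 3 with the largest moderated t in each comparison, and the brightest tested gene of each class. Slc12a5, Ank3, Hcn3 and the genes listed as not detected were named after their values were seen. The members and lists were chosen with earlier results of these data known. The fit was tested on simulated data with changes of known size. The simulated noise was independent between genes and arrays, with no effect of table position or array brightness. The rates that follow do not cover such effects. Of log2 changes of 0.25, 66% were called between the susceptible sides and 44% in susceptible left against control left. In the left-right difference of susceptible against resilient mice 14% were called. Of changes of 0.5, 98% to 100% were called. In susceptible left against control left, 15 of 187 simulated calls fell on unchanged genes. Alternatives were median scaling, cyclic loess, normexp background correction (offset 16), the authors' values, a looser filter, the mean over probes, a fit of only the groups compared, the replicate block, the table position as a block and leaving out each array. No pair of arrays within a group was identical, and pairs across groups were not compared. Precision is limited by 2 or 3 arrays per group. With so few arrays a lack of overlap was frequent. It held for 25 of the 67 channel genes between the control sides, where 0 were called. In susceptible left against control left it held for 31 of the 67, where 7 were called. Plots were made in Python 3.11.15 with matplotlib 3.10.9.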

Additional observations from a re-analysis of the deposited data

Results flagged for a closer look

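The left-right difference of 3 channel genes differed between groups of mice in a direct test. Against resilient mice, the left-right log2 difference in susceptible mice was higher by 0.54 for Cacng3, and the comparison gave -0.40 for Kcna1 and -0.44 for Kcnk13. Against control mice it gave 0.68 for Cacng3, -0.55 for Kcna1 and -0.58 for Kcnk13. Both comparisons share the susceptible arrays. In both, oligodendrocyte markers were called lower for 8 of 8 genes, meningeal markers higher for 4 of 4 and upper-layer markers higher for 3 of 4. Layer 6 and 6b markers were called lower for 3 of 7 genes against resilient and 4 of 7 against control mice. Striatal markers were called lower for 3 of 3 genes against resilient and 2 of 3 against control mice. The part of these lists in these differences was not tested.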

How the results depend on the processing

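The alternatives followed 44 channel gene differences, which were the calls and the 3 genes with the largest moderated t in each comparison. No alternative reversed the direction of any of these. Other differences named in the text were not part of this count, and a second probe taken alone was not among the alternatives. Median scaling gave 0 channel genes called in every comparison except susceptible left against control left, where it gave 1, and it moved the median of all genes to -0.20, -0.14, -0.16 and -0.12 in susceptible left, susceptible right, resilient left and resilient right against control. The cause was not tested. With the first and last 8 arrays of the table as a block, the counts were 3 in susceptible left, 2 in susceptible right and 2 in resilient left against control, 4 in susceptible against resilient left and 2 in susceptible against resilient right. Normexp background correction gave 2 in resilient left against control and 0 in susceptible against resilient right, where the mean over probes and the fit of only the groups compared also gave 0. Normexp kept 23 of the 35 calls and ended those of Cacna1h, Cacna1g and Scn3b between the sides in susceptible mice, Kcnk13 in the left-right difference against resilient mice, Kcnk2 on both sides in susceptible mice, Kcnab3 on both sides and Kcna1 and Scn3b on the left in resilient mice against control, and Kcnv1 and Cacng3 between susceptible and resilient mice. The mean over probes kept 29. With the replicate block, 39 calls were made in place of 35 and all 35 were kept. Same-numbered left and right arrays had correlations of their deviations of 0.19, 0.17 and 0.092 in susceptible, 0.34, -0.020 and 0.059 in resilient and 0.013 in control mice. Left and right arrays with different numbers had -0.158 to -0.017 in susceptible, -0.26 to 0.20 in resilient and -0.013 in control mice. With 2 control arrays per side, the control values could differ only in sign.

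Leaving out each array in turn gave 3 to 6 calls between the sides in susceptible mice, 2 to 4 in each test of the left-right difference between groups, 1 to 7 in susceptible left, 1 to 4 in susceptible right, 0 to 6 in resilient left and 0 to 3 in resilient right against control, 1 to 3 in susceptible against resilient left, 0 to 1 in susceptible against resilient right, and 0 in resilient and in control mice between the sides (limma). Where a group kept 1 array, it was assumed to vary like the others. Genes near the detection limit have log2 differences pulled toward 0 by the background that was not subtracted.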
